A study of Mus musculus with 12 samples.

Results

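The type I interferon response genes described here are 37 mouse genes whose transcription is induced by interferon-alpha and interferon-beta, taken by gene symbol from a gene count table of primary mammary tumours. The genes were listed by name with no threshold on measured values, though with earlier results of these data known, and all 37 symbols were among the 56860 genes of the table. All 37 also passed the filter on low counts, which left 30660 genes for testing. RNA of 12 whole tumours was sequenced, 4 of each of 3 genotypes, from mice that carried the mammary oncogene transgene MMTV-PyMT and were killed at 4.5 months. The C3_KO tumours carried MMTV-Cre with the C3Tdt allele of complement component C3, the S1pr1_KO tumours carried MMTV-Cre with the floxed allele S1pr1fl/fl of sphingosine-1-phosphate receptor 1, and the WT tumours carried MMTV-Cre with MMTV-PyMT and neither allele. The strain label of the WT samples names the oncogene alone, and the Cre transgene of this group is given by the series' design text. MMTV drives Cre mainly in mammary epithelium, so that stromal, vascular and immune cells of the tumours could keep an intact gene, and the controls shared both the oncogene and the Cre transgene with the knockouts.

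Type I interferons bind the receptor made of Ifnar1 and Ifnar2, whose kinases Jak1 and Tyk2 phosphorylate STAT proteins, Stat2 among them. Phosphorylated Stat2 and Irf9 are subunits of the complex ISGF3, which binds interferon-stimulated response elements in the promoters of antiviral genes. In tumours, interferon-induced transcripts can come from the cancer cells and from stromal and immune cells alike.

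Library totals ran from 230.4 to 484 M, where M is 1e6 counts, so counting error was small beside the differences between tumours for all but the lowest genes. The targeted genes overlapped between genotypes in whole tumours: C3 lay between 41.6 and 75.1 CPM (counts per 1e6 counts) in C3_KO and between 43.3 and 182 CPM in WT, and S1pr1 between 2.59 and 7.43 CPM in S1pr1_KO and between 2.88 and 8.02 CPM in WT. A count over the whole gene in whole tissue does not show whether an exon was deleted in the epithelium. All 7 luminal mammary markers were detected in every library, and their summed level lay between 3129 and 5990 CPM in C3_KO, between 2462 and 5245 CPM in S1pr1_KO and between 3154 and 6707 CPM in WT. Transcripts of other tissues or cell types set several libraries apart, most of all 3. Milk protein transcripts summed to 69110 CPM in C3_KO replicate 3, against 1279 to 5942 CPM in the other 11 libraries. Salivary gland transcripts were at 30910 CPM in S1pr1_KO replicate 1, at 1214 CPM in replicate 4 of the same genotype and at 5.85 to 107 CPM elsewhere. Skin keratinocyte markers summed to 493 CPM in C3_KO replicate 3, 74.6 CPM in C3_KO replicate 4 and 88.7 CPM in S1pr1_KO replicate 3, against at most 15.2 CPM in any other library. Neutrophil markers summed to 98.1 CPM in C3_KO replicate 3 and 36.6 CPM in S1pr1_KO replicate 3, against at most 16.0 CPM elsewhere. In S1pr1_KO replicates 1 and 2, adipocyte markers summed to 162 and 159.8 CPM, and no other library exceeded 47.3 CPM. B cell markers in the same pair of libraries summed to 94.4 and 53.0 CPM, and no other library exceeded 7.13 CPM.

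A sequence feature known from interferon-responsive promoters was looked for in RefSeq promoter windows of build GRCm38.p6, each 300 bases long and running from 250 bases before to 50 bases after an annotated start. A window was found by symbol for 26 of the 37 genes. The core of the interferon-stimulated response element was searched as GAAA, any 2 bases and GAAA again, or for the other strand as TTTC, any 2 bases and TTTC, with overlapping matches kept. It was present for 12 of the 26 genes (46.2%), namely Bst2, Eif2ak2, Ifih1, Ifit1, Ifit3, Ifit3b, Isg15, Oas1a, Oas3, Rsad2, Stat2 and Trim30a, and for 1079 of 27025 genes with a window (3.99%). A match describes the letters of the window and does not show that a factor was bound in these tumours. The 6 windows below belong to genes whose values are described in the comparisons, are written 5′ to 3′ on the strand of the gene in lower case, and have the matches in capitals; Bst2 holds a pair of overlapping matches, Ifit3 a pair of separate ones, and Trim30a has annotated starts with a window each.
Bst2, chr8:71537423-71537722, minus strand: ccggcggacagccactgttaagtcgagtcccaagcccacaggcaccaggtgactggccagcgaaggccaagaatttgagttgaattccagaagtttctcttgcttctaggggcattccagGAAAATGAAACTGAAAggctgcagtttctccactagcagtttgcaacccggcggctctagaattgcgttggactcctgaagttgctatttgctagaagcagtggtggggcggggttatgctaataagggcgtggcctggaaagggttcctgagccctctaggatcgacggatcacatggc
Ifih1, chr2:62646206-62646505, minus strand: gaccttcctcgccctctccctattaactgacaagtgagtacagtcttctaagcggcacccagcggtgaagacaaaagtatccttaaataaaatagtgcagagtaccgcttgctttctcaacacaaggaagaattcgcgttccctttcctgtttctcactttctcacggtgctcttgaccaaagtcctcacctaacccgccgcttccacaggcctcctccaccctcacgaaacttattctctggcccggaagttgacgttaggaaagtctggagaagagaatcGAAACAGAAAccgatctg
Trim30a, chr7:104446076-104446375, minus strand: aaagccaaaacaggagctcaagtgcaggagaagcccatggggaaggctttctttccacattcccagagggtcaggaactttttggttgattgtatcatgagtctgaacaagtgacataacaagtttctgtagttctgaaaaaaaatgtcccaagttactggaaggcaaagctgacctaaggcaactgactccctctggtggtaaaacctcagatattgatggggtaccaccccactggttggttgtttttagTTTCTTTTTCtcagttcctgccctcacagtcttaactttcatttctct
Trim30a, chr7:104465144-104465443, minus strand: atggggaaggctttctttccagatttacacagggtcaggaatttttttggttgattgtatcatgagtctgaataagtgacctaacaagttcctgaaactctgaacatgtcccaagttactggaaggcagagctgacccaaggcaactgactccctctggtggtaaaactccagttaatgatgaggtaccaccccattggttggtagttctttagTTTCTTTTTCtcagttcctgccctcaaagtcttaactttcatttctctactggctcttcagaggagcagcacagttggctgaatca
Stat2, chr10:128270248-128270547, plus strand: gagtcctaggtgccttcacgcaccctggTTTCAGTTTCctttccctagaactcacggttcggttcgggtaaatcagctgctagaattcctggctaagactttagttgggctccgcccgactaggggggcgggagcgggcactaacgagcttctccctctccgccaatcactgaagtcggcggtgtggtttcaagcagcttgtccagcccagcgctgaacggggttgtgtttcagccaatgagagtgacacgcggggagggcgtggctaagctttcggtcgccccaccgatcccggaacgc
Ifit3, chr19:34583279-34583578, plus strand: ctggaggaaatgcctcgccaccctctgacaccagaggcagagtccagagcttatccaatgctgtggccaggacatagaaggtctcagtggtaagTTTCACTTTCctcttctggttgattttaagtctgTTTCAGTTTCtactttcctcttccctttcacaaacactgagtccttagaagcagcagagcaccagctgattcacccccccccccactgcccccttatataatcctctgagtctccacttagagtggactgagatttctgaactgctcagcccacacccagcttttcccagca

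**Figure D1:**
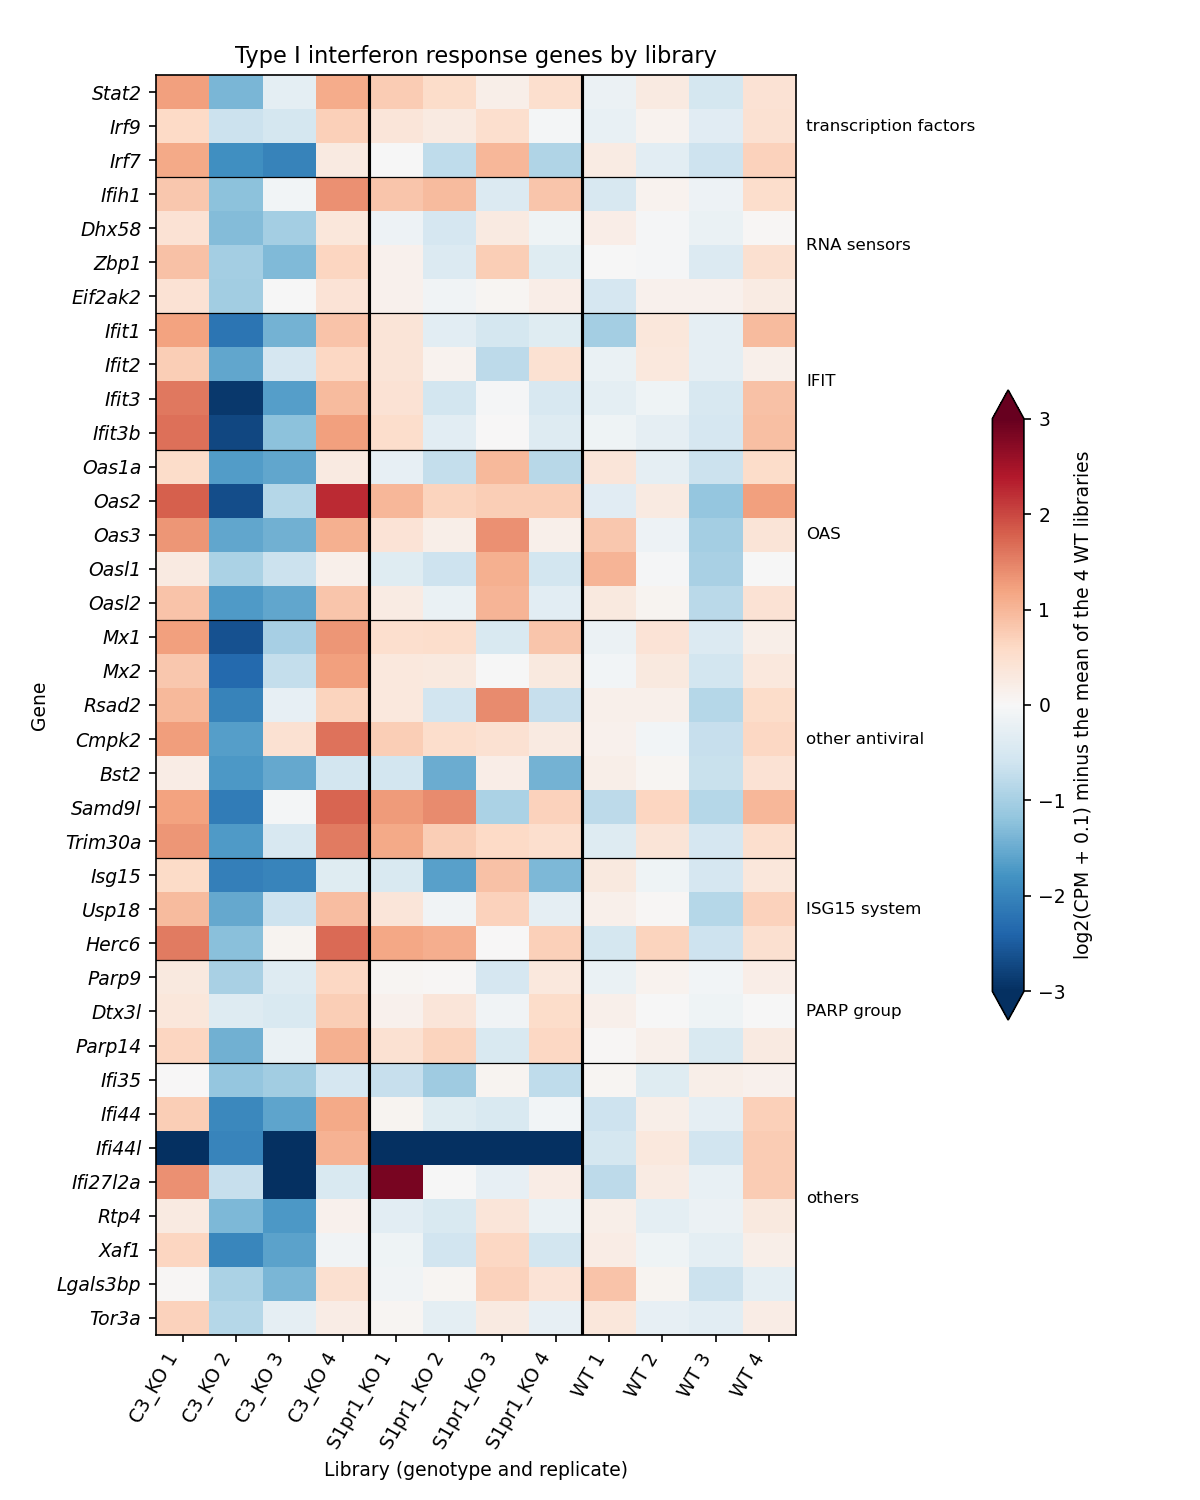
Level of each of the 37 genes (rows, grouped by role) in each of the 12 libraries (columns, with C3_KO, S1pr1_KO and WT from left to right), as log2(CPM + 0.1) minus the mean of the 4 WT libraries; red is higher and blue lower. The columns of C3_KO replicates 2 and 3 are mostly blue and those of C3_KO replicates 1 and 4 mostly red, whereas the S1pr1_KO columns are mixed.

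The genes spanned a wide range of levels. Per transcript length, in FPKM (fragments per kilobase per 1e6 fragments) averaged over the 12 libraries, Bst2 was highest at 130.8 FPKM, followed by Ifi27l2a at 103 FPKM, with Isg15 next and then Irf7 at 69.0 FPKM. At the other end stood Herc6 at 1.86 FPKM, Oas3 at 1.99 FPKM, Ifi44l at 2.61 FPKM and Mx2 at 2.71 FPKM. Bst2 encodes tetherin, which holds budding virus particles at the cell surface, and Isg15 a ubiquitin-like protein that is conjugated to other proteins. The least variable gene across the 12 libraries was Dtx3l, whose highest CPM was 2.30 times its lowest, and the most variable was Ifi44l at 679 times, followed by Ifi27l2a at 57.9 times. CPM values are used below to compare libraries within a gene, with library sizes scaled by TMM, the trimmed mean of M-values.

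Most of the variation lay among the 4 C3_KO tumours. Averaged over the 37 genes as log2 CPM, the level was 6.00, 3.74, 4.22 and 6.09 in C3_KO replicates 1 to 4, was 5.47, 5.09, 5.40 and 5.14 in S1pr1_KO, and was 5.30, 5.43, 4.87 and 5.80 in WT. The highest and the lowest libraries of the series were thus both C3_KO libraries. The widest coefficient of variation of the 3 genotypes was that of C3_KO for 33 of 37 genes, against 38.8% of all genes tested, and that of S1pr1_KO for the other 4 (Ifi27l2a, Isg15, Oasl1 and Rsad2), against 36.1% of all genes. The median coefficient of variation of the 37 genes was 69.3% in C3_KO, 32% in S1pr1_KO and 33% in WT, where that of all genes was 41%, 40.2% and 32.8%.

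Taken gene by gene, C3_KO replicate 2 had the lowest level of the 12 libraries for 29 of the 37 genes (11.1% of all genes) and C3_KO replicate 3 for 7 (11.7% of all genes), these being Dtx3l, Ifi27l2a, Ifi44l, Irf7, Lgals3bp, Rtp4 and Zbp1. The remaining gene, Oasl1, was lowest in WT replicate 3. C3_KO replicate 4 had the highest level for 14 genes (5.6% of all genes) and C3_KO replicate 1 for 12 (7.81% of all genes). C3_KO replicate 2 was below all 4 WT libraries for 35 of 37 genes, all but Ifi27l2a and Oasl1, where 22.4% of all genes were so placed. C3_KO replicate 3 was below all 4 WT libraries for 24 genes, against 27.6% of all genes. Neither library was above all WT libraries for any of the 37 genes, where 19.8% and 26.6% of all genes were. C3_KO replicate 1 was above all 4 WT libraries for 31 genes, against 23.9% of all genes, and C3_KO replicate 4 for 25, against 27% of all genes. Each had 1 gene below all WT libraries, Ifi44l in replicate 1 and Ifi35 in replicate 4 (19% and 28.4% of all genes). The S1pr1_KO libraries stayed nearer to WT. Replicates 1 to 4 of S1pr1_KO were below all WT libraries for 3, 10, 6 and 8 of the 37 genes, against 27%, 29.8%, 25.4% and 27.7% of all genes, and above them for 11, 8, 14 and 8, against 28.7%, 31%, 18.7% and 26.7% of all genes.

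**Figure D2:**
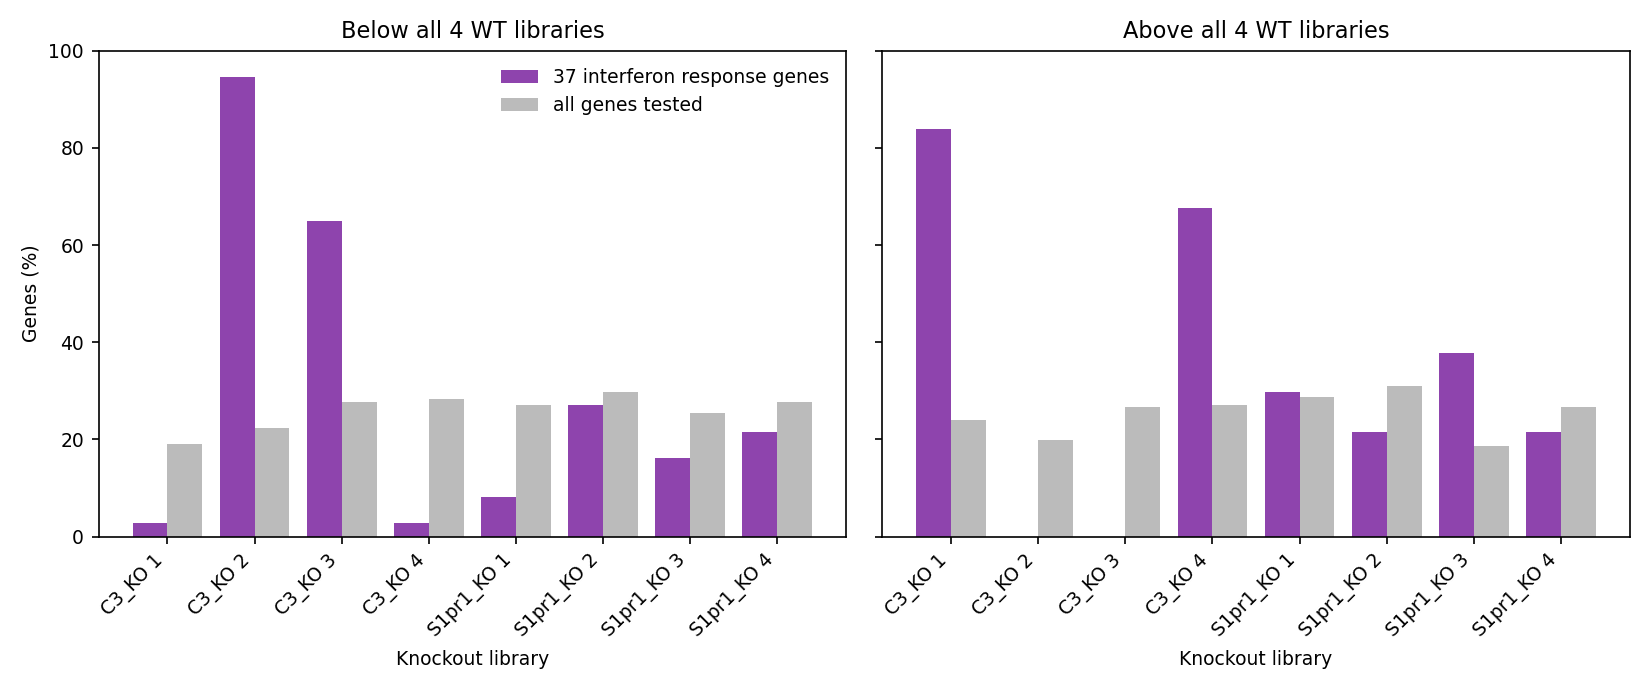
Percentage of the 37 interferon response genes (purple) and of all genes tested (grey) whose CPM in a knockout library was below (left) or above (right) that of all 4 WT libraries. C3_KO replicate 2 had 94.6% of the 37 genes below all WT libraries and C3_KO replicate 1 had 83.8% above them, while the purple bars of the S1pr1_KO libraries stay nearer to the grey ones.

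The transcription factors of the response showed this spread. Stat2, the subunit of ISGF3 that carries its activation domain, stood at 124, 20.6, 43.2 and 116 CPM in C3_KO replicates 1 to 4, at 90.3, 78.0, 59.5 and 75.2 CPM in S1pr1_KO and at 46.7, 63.9, 36.9 and 72.0 CPM in WT. Irf9, its DNA-binding subunit, stood at 113, 47.6, 51.2 and 122 CPM in C3_KO, at 96.2, 89.2, 105 and 70.8 CPM in S1pr1_KO and at 63.8, 79.9, 58.4 and 102 CPM in WT. Irf7, which amplifies interferon-alpha transcription, stood at 559, 70.4, 63.4 and 307 CPM in C3_KO, at 253, 150.4, 502 and 136 CPM in S1pr1_KO and at 299.9, 203, 165 and 407 CPM in WT. C3_KO replicate 2 lay below every WT library for all 3 factors, as did C3_KO replicate 3 for Irf9 and Irf7, and the 3 genotypes overlapped. The Irf9 and Irf7 loci overlap Rnf31 and Phrf1, and the handling of strand is not given in the sources used here, so a share of their reads could belong to those genes.

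The sensors of foreign or misplaced nucleic acid were next. Ifih1 encodes MDA5 and senses long double-stranded RNA; it stood at 61.4, 14.9, 33.1 and 90.7 CPM in C3_KO replicates 1 to 4, at 62.4, 68.0, 26.3 and 62.6 CPM in S1pr1_KO and at 24.9, 38.0, 31.6 and 50.5 CPM in WT. S1pr1_KO replicate 3 was the low library of its genotype and lay within the WT range, which the other 3 S1pr1_KO libraries exceeded. Dhx58, which encodes the regulator LGP2, ranged from 16.4 to 54.8 CPM in C3_KO, from 28.6 to 49.4 CPM in S1pr1_KO and from 35.5 to 46.8 CPM in WT. Zbp1, a sensor of Z-form nucleic acid that can trigger necroptosis, ranged from 19.1 to 89.1 CPM in C3_KO, from 36.1 to 80.1 CPM in S1pr1_KO and from 36.1 to 67.2 CPM in WT. Eif2ak2, the kinase PKR that halts translation on sensing double-stranded RNA, ranged from 35.2 to 97.8 CPM in C3_KO, from 67.9 to 83.8 CPM in S1pr1_KO and from 51.2 to 86.6 CPM in WT. The C3_KO range contained the WT range for Dhx58, Zbp1 and Eif2ak2.

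The IFIT proteins bind viral RNA and restrict its translation. Ifit3, whose promoter window holds 2 matches to the response element, stood at 275, 12.1, 28.7 and 176 CPM in C3_KO replicates 1 to 4, at 123, 62.0, 89.0 and 65.4 CPM in S1pr1_KO and at 74.3, 83.8, 65.8 and 169 CPM in WT. Its near-identical neighbour Ifit3b stood at 126, 5.96, 17.0 and 95.1 CPM in C3_KO, at 57.8, 32.2, 40.6 and 30.6 CPM in S1pr1_KO and at 36.7, 33.5, 28.4 and 75.4 CPM in WT, and the split of reads between these copies is uncertain. In C3_KO both genes spanned more than the whole S1pr1_KO and WT ranges. Ifit1 ranged from 13.6 to 145 CPM in C3_KO, from 43.3 to 81.6 CPM in S1pr1_KO and from 30.9 to 119.7 CPM in WT. Ifit2 ranged from 6.93 to 34.2 CPM in C3_KO, from 11.9 to 28.1 CPM in S1pr1_KO and from 17.0 to 25.6 CPM in WT.

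The OAS enzymes make 2′-5′-linked oligoadenylates that activate RNase L. Oas2 stood at 149, 6.71, 23.5 and 201 CPM in C3_KO replicates 1 to 4, at 85.4, 67.7, 71.3 and 71.0 CPM in S1pr1_KO and at 33.6, 51.1, 19.2 and 101 CPM in WT. Its highest library was 30.0 times its lowest and both were C3_KO libraries, while the S1pr1_KO libraries stayed close together. Oas1a ranged from 23.6 to 109.8 CPM in C3_KO, from 42.5 to 149 CPM in S1pr1_KO and from 48.5 to 109.6 CPM in WT. Oas3 ranged from 3.42 to 26.1 CPM in C3_KO, from 11.4 to 26.9 CPM in S1pr1_KO and from 5.05 to 18.2 CPM in WT. The OAS-like protein Oasl1 restrains Irf7 translation in mice. Its transcript stood at 23.7, 10.1, 12.5 and 21.8 CPM in C3_KO replicates 1 to 4, at 15.3, 12.6, 41.3 and 13.3 CPM in S1pr1_KO and at 39.8, 19.2, 9.87 and 19.4 CPM in WT, with S1pr1_KO replicate 3 and WT replicate 1 above the rest. Oasl2 ranged from 34.3 to 204 CPM in C3_KO, from 90.4 to 228 CPM in S1pr1_KO and from 63.5 to 152 CPM in WT.

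Among the other antiviral effectors, Bst2 stood at 183, 47.3, 53.3 and 107 CPM in C3_KO replicates 1 to 4, at 106, 55.0, 178 and 58.0 CPM in S1pr1_KO and at 175, 163, 97.9 and 210.4 CPM in WT. C3_KO replicates 2 and 3 and S1pr1_KO replicates 2 and 4 were the 4 lowest libraries, and WT replicate 4 was the highest. Cmpk2, a mitochondrial nucleotide kinase, stood at 46.0, 5.98, 26.2 and 59.5 CPM in C3_KO, at 31.9, 27.7, 26.3 and 23.0 CPM in S1pr1_KO and at 21.0, 18.1, 11.8 and 29.4 CPM in WT. Trim30a, a tripartite-motif protein that restrains Toll-like receptor signalling in mice, stood at 48.1, 5.75, 13.5 and 56.1 CPM in C3_KO, at 41.9, 31.9, 28.7 and 26.9 CPM in S1pr1_KO and at 14.6, 24.8, 13.3 and 27.2 CPM in WT. Both genes had their minimum in C3_KO replicate 2 and their maximum in C3_KO replicate 4. Rsad2, which encodes the radical-SAM enzyme viperin, ranged from 9.55 to 76.7 CPM in C3_KO, from 23.9 to 103 CPM in S1pr1_KO and from 21.3 to 56.8 CPM in WT. The dynamin-like GTPase Mx1 ranged from 1.502 to 24.6 CPM in C3_KO, from 7.08 to 17.4 CPM in S1pr1_KO and from 7.30 to 12.9 CPM in WT. Mx2, its paralogue, ranged from 1.54 to 19.1 CPM in C3_KO, from 8.08 to 10.2 CPM in S1pr1_KO and from 5.57 to 10.1 CPM in WT. Samd9l, which restricts poxviruses, had its minimum in the same library as these genes and ranged from 4.68 to 68.6 CPM in C3_KO, from 10.5 to 54.7 CPM in S1pr1_KO and from 11.3 to 40.6 CPM in WT.

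Of the genes of protein modification by ISG15 and ADP-ribose, all 6 had their lowest library among the C3_KO tumours. Isg15 stood at 126, 20.4, 21.4 and 65.1 CPM in C3_KO replicates 1 to 4, at 61.4, 27.3, 156 and 33.0 CPM in S1pr1_KO and at 103, 76.6, 59.8 and 107 CPM in WT. Its ligase in mice, Herc6, stood at 30.2, 4.26, 10.8 and 33.4 CPM in C3_KO, at 22.8, 21.8, 10.3 and 16.9 CPM in S1pr1_KO and at 7.08, 16.3, 6.60 and 14.3 CPM in WT. S1pr1_KO replicate 3 was the highest library of the series for Isg15 and the lowest of its genotype for Herc6. Usp18, which removes ISG15 and damps receptor signalling, ranged from 7.14 to 40.9 CPM in C3_KO, from 17.4 to 34.1 CPM in S1pr1_KO and from 11.5 to 33.8 CPM in WT. Parp9 and Dtx3l form an ADP-ribosylating ubiquitin ligase complex, and their loci overlap on opposite strands. Parp9 ranged from 33.9 to 101 CPM in C3_KO, from 46.6 to 83.2 CPM in S1pr1_KO and from 57.4 to 76.0 CPM in WT. Dtx3l ranged from 42.0 to 96.4 CPM in C3_KO, from 53.2 to 84.1 CPM in S1pr1_KO and from 52.9 to 63.4 CPM in WT. Parp14, a mono-ADP-ribosyltransferase, had its lowest level in C3_KO replicate 2 and its highest in C3_KO replicate 4, and ranged from 21.3 to 123 CPM in C3_KO, from 42.7 to 92.2 CPM in S1pr1_KO and from 42.8 to 70.0 CPM in WT.

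The remaining 8 genes held the clearest departures from the common pattern. Ifi44l, an interferon-induced gene of less settled function, stood at 0.0575, 1.51, 0.0190 and 12.9 CPM in C3_KO replicates 1 to 4, at 0.0273, 0.0432, 0.0351 and 0.0892 CPM in S1pr1_KO and at 4.32, 7.82, 4.18 and 10.7 CPM in WT. In counts these were 26, 536, 6 and 3762 in C3_KO, 6, 16, 12 and 24 in S1pr1_KO, and 1226, 3827, 1582 and 4818 in WT. The 4 S1pr1_KO libraries and C3_KO replicates 1 and 3 were all under 0.1 CPM, C3_KO replicate 2 was intermediate, and C3_KO replicate 4 lay above the WT libraries. C3_KO replicate 1, which was high for most of the other genes, was thus among the lowest for Ifi44l. Its paralogue Ifi44 stood at 84.5, 13.4, 17.0 and 113 CPM in C3_KO, at 54.1, 39.7, 37.2 and 47.9 CPM in S1pr1_KO and at 33.1, 57.5, 42.6 and 83.4 CPM in WT, with the S1pr1_KO libraries inside the WT range.

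Ifi27l2a, which encodes a small membrane protein of the ISG12 family, stood at 81.3, 19.6, 3.92 and 23.1 CPM in C3_KO replicates 1 to 4, at 227, 31.2, 26.6 and 36.8 CPM in S1pr1_KO and at 18.2, 37.7, 26.9 and 53.8 CPM in WT. The S1pr1_KO library that stood apart, replicate 1, was also the one with the most salivary transcripts and with the highest leukocyte, T cell and B cell marker sums of the series (340 CPM, 38.6 CPM and 94.4 CPM), whose part in this value was not tested. Ifi35, which forms a cytosolic complex with Nmi, stood at 77.0, 34.4, 37.1 and 53.9 CPM in C3_KO, at 47.3, 36.7, 80.8 and 45.5 CPM in S1pr1_KO and at 79.8, 59.5, 86.7 and 83.8 CPM in WT. It was below the WT range in 3 of 4 S1pr1_KO libraries and in 3 of 4 C3_KO libraries. Lgals3bp, a secreted glycoprotein that binds galectins, stood at 161, 82.4, 61.6 and 221 CPM in C3_KO, at 146, 165, 256 and 210.3 CPM in S1pr1_KO and at 287, 168, 101 and 129 CPM in WT. Rtp4, a Golgi chaperone of cell surface receptors, stood at 104, 33.7, 26.1 and 94.7 CPM in C3_KO, at 68.8, 62.9, 111 and 74.8 CPM in S1pr1_KO and at 96.5, 69.7, 76.8 and 106 CPM in WT. For both of these genes C3_KO replicate 3 was the lowest library. Xaf1, which binds the apoptosis inhibitor XIAP, ranged from 12.6 to 76.9 CPM in C3_KO, from 33.3 to 75.9 CPM in S1pr1_KO and from 40.5 to 57.6 CPM in WT. Tor3a, an interferon-induced torsin ATPase, ranged from 17.1 to 50.8 CPM in C3_KO, from 25.5 to 37.6 CPM in S1pr1_KO and from 24.9 to 39.5 CPM in WT.

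**Figure D3:**
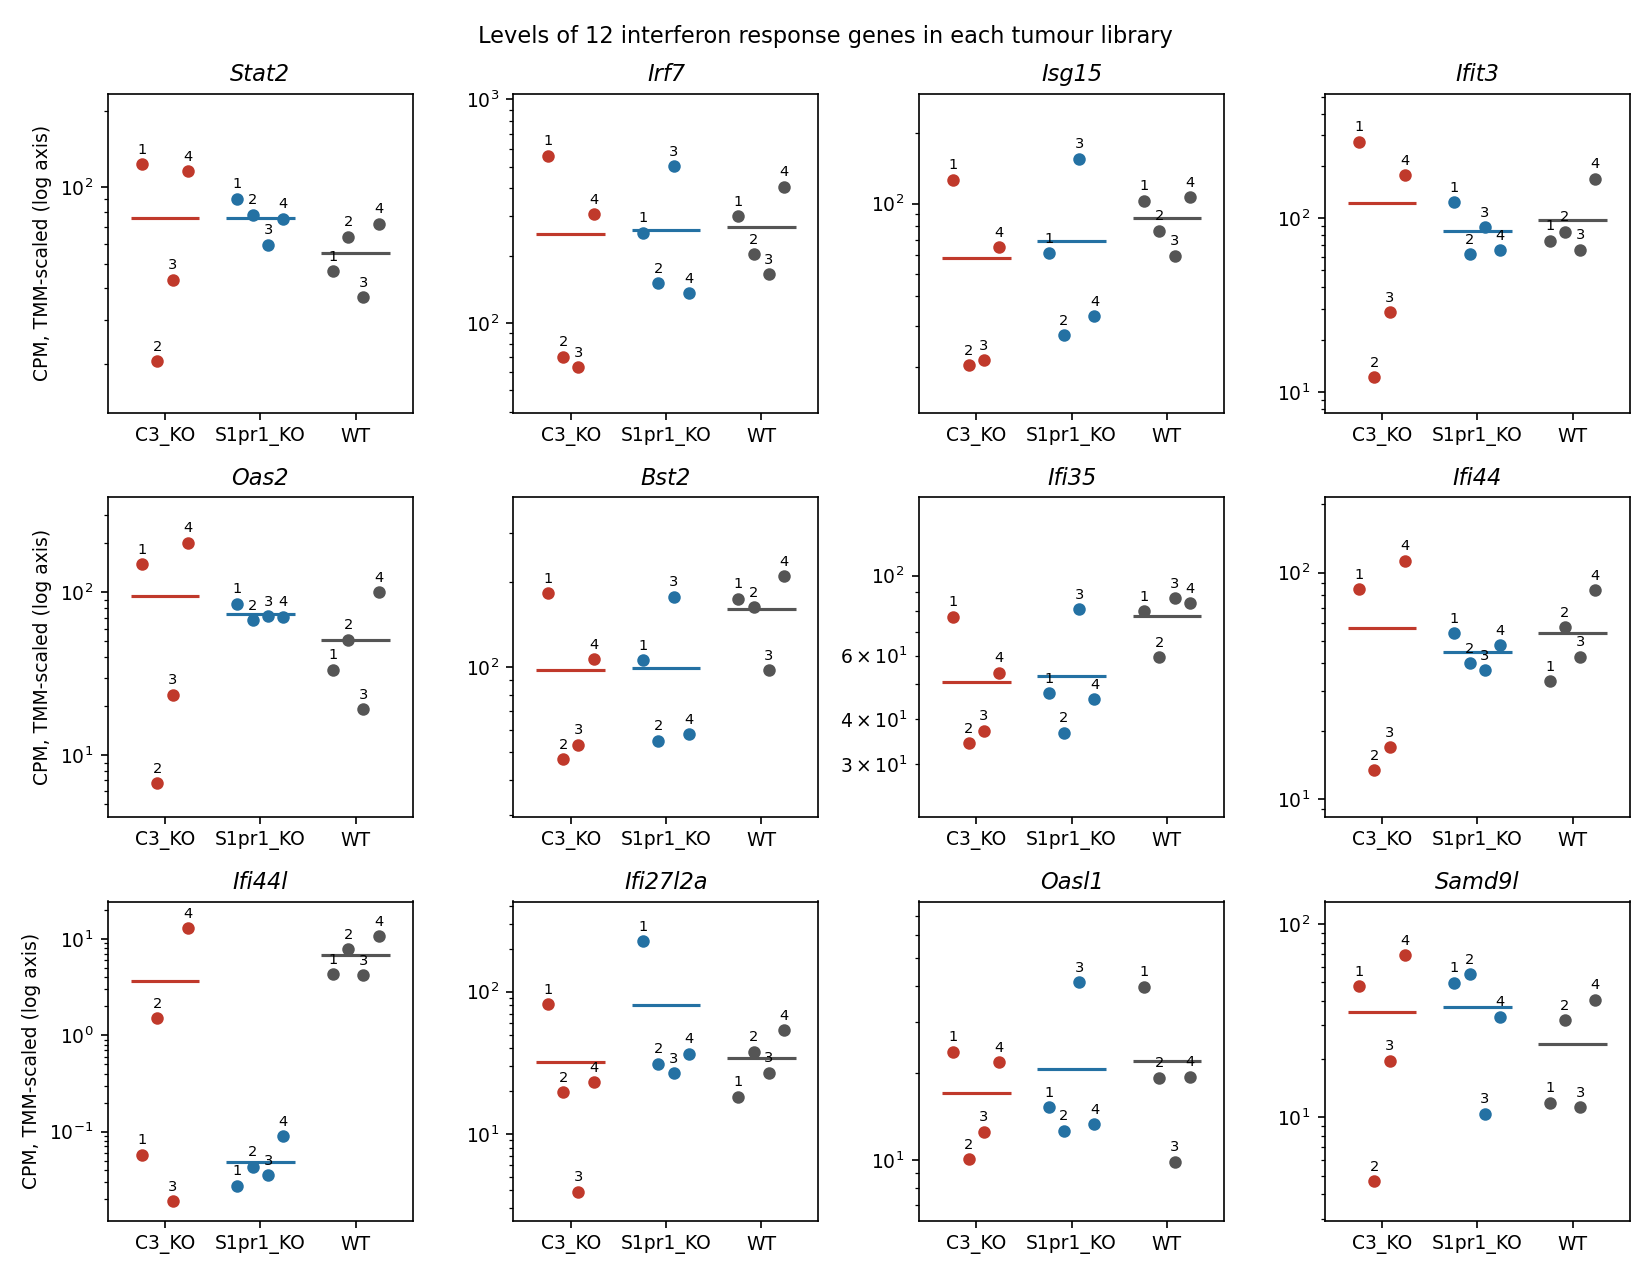
CPM on a log axis of 12 of the genes in each library, with C3_KO, S1pr1_KO and WT from left to right, the replicate number above each point and the group mean as a line. Ifi44l is under 0.1 CPM in all 4 S1pr1_KO libraries and in C3_KO replicates 1 and 3, and Ifi27l2a reaches 227 CPM in S1pr1_KO replicate 1.

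The comparison of C3_KO with WT tumours asks how the C3 knockout bears on the interferon response in the tumour. No interferon response gene passed the test, and the C3_KO libraries lay on both sides of WT. Ifi35 averaged 50.6 ± 19.6 CPM in C3_KO and 77.4 ± 12.3 CPM in WT (SD, n = 4 each), and Bst2 averaged 97.6 ± 62.8 CPM in C3_KO and 162 ± 47.0 CPM in WT. Oas2 averaged 95.2 ± 95.1 CPM in C3_KO and 51.1 ± 35.5 CPM in WT, with an SD about as large as the mean in C3_KO. None of the 37 genes had groups that did not overlap (3.04% of all genes).

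By edgeR's quasi-likelihood test with Benjamini-Hochberg adjustment over 30660 genes, 0 of the 37 genes were called (0% of all genes). Of the 37, 0 had an unadjusted p under 0.05 by that test (6.23% of all genes). DESeq2 (0.186% of the 45227 genes it fitted) and limma-voom (0.0163% of 30660 genes) called 0 of them as well. The fitted log2 fold change, C3_KO over WT, was above 0 for 24 genes and below 0 for 13 (54.2% and 45.8% of all genes), with a median of 0.07 where that of all genes was 0.05. The smallest p belonged to Ifi35, with a log2 fold change of -0.61 ± 0.30 (SE; edgeR adjusted p = 0.765, 0.313 to 0.999 over the alternatives). Bst2 had -0.73 ± 0.47, Cmpk2 0.78 ± 0.50, Herc6 0.83 ± 0.54, Trim30a 0.63 ± 0.54 and Oas2 0.90 ± 0.79 (SE), with edgeR adjusted p values from 0.765 for Bst2, Cmpk2 and Herc6 to 0.795 for Oas2. The transcription factors had log2 fold changes of 0.47 for Stat2 (95% interval -0.50 to 1.43), 0.14 for Irf9 (-0.55 to 0.82) and -0.11 for Irf7 (-1.49 to 1.28), with edgeR adjusted p values of 0.803, 0.925 and 0.974. These intervals leave room for changes of either sign. The median depended on single libraries. Leaving out C3_KO replicate 1 gave -0.25, C3_KO replicate 4 -0.13, C3_KO replicate 2 0.33, C3_KO replicate 3 0.31, WT replicate 4 0.28, WT replicate 3 -0.03 and WT replicate 2 0.13. With the milk-rich and both salivary-rich libraries left out it was 0.34, and on the log2(FPKM + 0.1) scale it was -0.08, with 15 genes above 0 and 22 below, where 62% of all genes were above 0 with a median of 0.10.

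The comparison of S1pr1_KO with WT tumours asks the same of the S1pr1 knockout. Ifi44l was the gene that stood apart, at 0.0487 ± 0.0278 CPM in S1pr1_KO and 6.75 ± 3.11 CPM in WT (SD, n = 4 each), and every S1pr1_KO library was below every WT library. It was the only gene of the 37 whose groups did not overlap (7.58% of all genes, and 4.8% with S1pr1_KO below). The other 36 genes overlapped between the genotypes. Ifi35 averaged 52.6 ± 19.4 CPM in S1pr1_KO and 77.4 ± 12.3 CPM in WT, and Bst2 averaged 99.3 ± 57.4 CPM in S1pr1_KO and 162 ± 47.0 CPM in WT.

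The edgeR test called 0 of the 37 genes (0% of all genes), and 1, Ifi44l, had an unadjusted p under 0.05 (15.5% of all genes, and 7.78% lower in S1pr1_KO). Ifi44l had a log2 fold change, S1pr1_KO over WT, of -7.10 ± 1.68 (SE) and an edgeR adjusted p of 0.191, which ranged from 6.53e-05 to 0.719 over the alternatives. It was called by DESeq2 (adjusted p = 6.53e-05; 1.98% of all genes fitted were called). It was also called by edgeR fitted to these genotypes alone (adjusted p = 7.49e-04, with 0.234% of the 29057 genes fitted called). The spread of Ifi44l among C3_KO libraries does not enter that fit. Limma-voom with quality weights called Ifi44l (adjusted p = 0.0113), Ifi35 (log2 fold change -0.90, adjusted p = 0.0104) and Bst2 (-1.21, adjusted p = 0.0276), in a fit that called 25.5% of all genes, so 3 of 37 was no more than the background. On the log2(FPKM + 1) scale the difference of Ifi44l was -2.35, since a pseudocount shrinks differences of low genes. In the edgeR fit across all genotypes Ifi35 had a log2 fold change of -0.56 ± 0.30 (SE, adjusted p = 0.378, 0.0104 to 0.878 over the alternatives) and Bst2 one of -0.70 ± 0.47 (SE, adjusted p = 0.479, 0.0276 to 0.9 over the alternatives).

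The next smallest p values belonged to Ifi27l2a, with a log2 fold change of 1.24 ± 0.85, to Ifih1, with 0.60 ± 0.46, and to Herc6, with 0.70 ± 0.54 (SE), and edgeR adjusted p values were 0.496, 0.544 and 0.545. The value of Ifi27l2a rested on S1pr1_KO replicate 1, without which it was -0.05. Stat2 had a log2 fold change of 0.47 (95% interval -0.50 to 1.43), Irf9 0.25 (-0.43 to 0.93) and Irf7 -0.05 (-1.43 to 1.34), with edgeR adjusted p values of 0.632, 0.729 and 0.979. Of the 37 genes, 21 were above 0 and 16 below (51.7% and 48.3% of all genes), with a median log2 fold change of 0.10 where that of all genes was 0.03. Upper-quartile scaling shifted the median of all genes to 0.15 and that of the 37 to 0.21. Leaving out S1pr1_KO replicate 3 brought the median of the 37 to -0.03, WT replicate 3 to -0.01, WT replicate 4 to 0.29 and S1pr1_KO replicate 2 to 0.17, and the voom fit to -0.06. It was 0.20 without the milk-rich and both salivary-rich libraries, and 0.22 with 30 of 37 genes above 0 on the log2(FPKM + 1) scale, where 61.2% of all genes were above 0 with a median of 0.03. FPKM leaves out the TMM factors, whose mean log2 value was 0.17 higher in S1pr1_KO than in WT. That value was 0.13 higher in C3_KO than in WT and 0.04 higher in S1pr1_KO than in C3_KO. Its part in the counts on the FPKM scales was not tested.

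**Figure D4:**
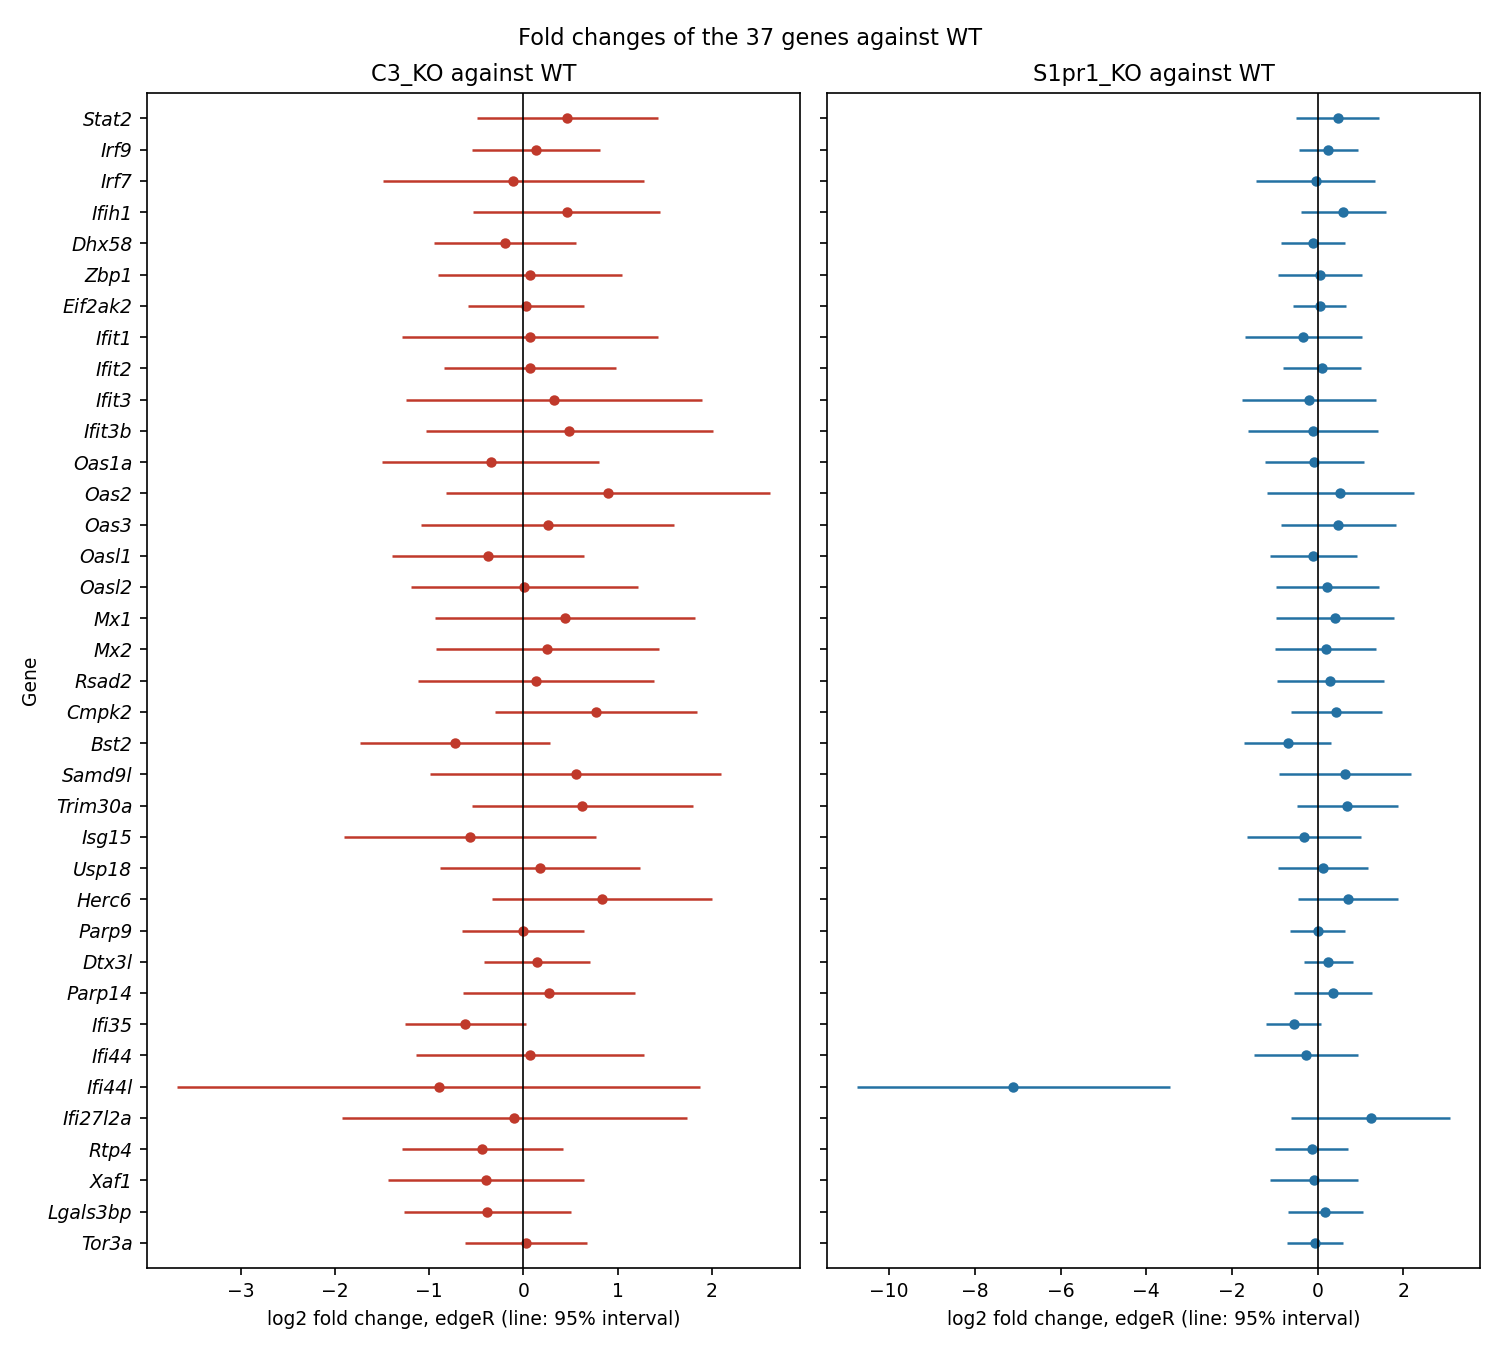
Fitted log2 fold change (points) with its 95% interval (lines) for each of the 37 genes, for C3_KO against WT (left) and S1pr1_KO against WT (right). All intervals cross 0 except that of Ifi44l in S1pr1_KO, at -7.10; both comparisons use the same 4 WT libraries.

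S1pr1_KO replicate 3 was the highest of the 12 libraries for 7 of the 37 genes (7.74% of all genes), namely Isg15, Oas1a, Oas3, Oasl1, Oasl2, Rsad2 and Rtp4. For 7 others, Ifi44l, Ifih1, Ifit2, Mx1, Parp14, Parp9 and Samd9l, it was among the 3 lowest (32.5% of all genes), so that 18.9% of the interferon response genes was less than the background, and Ifi44l was low in all 4 S1pr1_KO libraries. Samd9l stood at 49.6, 54.7, 10.5 and 33.2 CPM in S1pr1_KO replicates 1 to 4, and Rsad2 at 48.6, 25.8, 103 and 23.9 CPM in the same libraries. Counted from the highest library, S1pr1_KO replicate 3 ranked 1 for Oas1a, Oas3, Oasl1 and Oasl2 and 5 for Oas2. In the IFIT family it ranked 5 for Ifit3 and Ifit3b, 9 for Ifit1 and 11 for Ifit2.

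When S1pr1_KO tumours were set against C3_KO tumours, no interferon response gene passed the edgeR test. Ifi44l had a mean of 0.0487 ± 0.0278 CPM in S1pr1_KO libraries and 3.62 ± 6.22 CPM in C3_KO libraries (mean ± SD, n = 4 each), where C3_KO replicates 1 and 3 were as low as the S1pr1_KO libraries. Lgals3bp averaged 194 ± 49.1 CPM in S1pr1_KO and 132 ± 73.5 CPM in C3_KO. Ifit3 averaged 84.9 ± 28.2 CPM in S1pr1_KO and 123 ± 125 CPM in C3_KO. None of the 37 genes had groups that did not overlap (1.31% of all genes).

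The edgeR test called 0 of the 37 genes (0% of all genes), and 1, Ifi44l, had an unadjusted p under 0.05 (3.4% of all genes, and 1.63% lower in S1pr1_KO). Its log2 fold change, S1pr1_KO over C3_KO, was -6.21 ± 1.62 (SE, edgeR adjusted p = 1, 0.00315 to 1 over the alternatives), DESeq2 called it (0.27% of all genes fitted) and limma-voom did not (0% of all genes). It was -3.43 without C3_KO replicate 4, -3.30 by voom and -1.12 on the log2(FPKM + 1) scale. Ifi27l2a had 1.33 ± 0.85, Lgals3bp 0.56 ± 0.41, Ifit3b -0.60 ± 0.70, Rtp4 0.30 ± 0.40 and Ifit3 -0.54 ± 0.72 (SE), all with an edgeR adjusted p of 1. Stat2 had -0.00 (95% interval -0.96 to 0.96), Irf9 0.11 (-0.57 to 0.80) and Irf7 0.06 (-1.33 to 1.44). Of the 37 genes, 23 were above 0 and 14 below (46.2% and 53.8% of all genes), with a median of 0.06 where that of all genes was -0.03. On the log2(FPKM + 1) scale 36 of 37 were above 0 with a median of 0.24, where 51% of all genes were above 0 with a median of 0.00. The cause of this change was not tested, and since the members share their libraries, the count does not stand for 36 separate observations. Omitting C3_KO replicate 2 turned the median to -0.22, C3_KO replicate 3 to -0.12 and S1pr1_KO replicate 3 to -0.14, and omitting C3_KO replicate 1 raised it to 0.33, C3_KO replicate 4 to 0.31. Without the milk-rich and both salivary-rich libraries it was -0.13.

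The rest of the pathway was read from further lists. Of 20 interferon ligand genes, 3 (Ifnb1, Ifnk and Ifng) had counts enough for testing. Ifnb1, which encodes interferon-beta, had counts of 0, 0, 12 and 0 in C3_KO, 0, 0, 16 and 0 in S1pr1_KO, and 18, 19, 8 and 14 in WT. It was thus detected in all 4 WT libraries and in 1 library of each knockout. A count of 0 allows up to 3 counts in a library if counts are independent, and more if both mates of a pair are counted. Its log2 fold change was -2.02 ± 1.52 in C3_KO and -1.62 ± 1.49 in S1pr1_KO against WT (SE; edgeR adjusted p = 0.773 and 0.616).

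No gene of these lists was called by edgeR in any of the 3 comparisons. The 13 receptor and JAK-STAT genes had median log2 fold changes of 0.04 in C3_KO and 0.11 in S1pr1_KO against WT, and their mean log2 CPM lay between 5.32 and 5.71 over all 12 libraries. The mean of this list thus varied less between libraries than that of the 37 genes. The 15 genes of nucleic acid sensing and interferon induction had medians of 0.09 in C3_KO and 0.02 in S1pr1_KO against WT. Within this list 2 endosomal nucleic acid receptors, Tlr9 and Tlr7, had an unadjusted edgeR p under 0.05 in S1pr1_KO against WT. That was 13.3% of the list, no more than the 15.5% of all genes. These 2 genes were singled out after their values were seen. Tlr9, a receptor for DNA, stood at 3.42, 4.05, 2.17 and 3.81 CPM in S1pr1_KO replicates 1 to 4 and at 1.07, 0.633, 0.267 and 0.385 CPM in WT, with no overlap, and at 0.564 to 2.50 CPM in C3_KO. Its log2 fold change was 2.52 ± 0.53 in S1pr1_KO against WT (SE; unadjusted p = 3.64e-04, edgeR adjusted p = 0.145). Tlr7, a receptor for RNA, stood at 4.37, 5.08, 0.872 and 3.75 CPM in S1pr1_KO and at 0.846, 1.86, 0.893 and 1.36 CPM in WT, which overlapped, with a log2 fold change of 1.51 ± 0.59 (SE; unadjusted p = 0.0235, edgeR adjusted p = 0.271). Of 44 other genes induced by type I interferon, 43 were in the table and tested, with medians of 0.16 in C3_KO and 0.33 in S1pr1_KO against WT, and the 14 genes induced by interferon-gamma had medians of 0.03 and 0.11. The other type I induced genes averaged 5.08, 3.40, 3.95 and 4.80 in log2 CPM in C3_KO replicates 1 to 4, 4.97, 4.68, 4.28 and 4.48 in S1pr1_KO, and 3.98, 4.59, 3.94 and 4.66 in WT. The interferon-gamma list averaged 4.90, 2.51, 3.03 and 4.18 in C3_KO, 4.23, 4.03, 3.78 and 3.85 in S1pr1_KO, and 3.57, 4.01, 3.38 and 3.79 in WT. C3_KO replicate 2 was the lowest library and C3_KO replicate 1 the highest for both lists, as C3_KO replicate 2 was for the 37 genes.

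**Figure D5:**
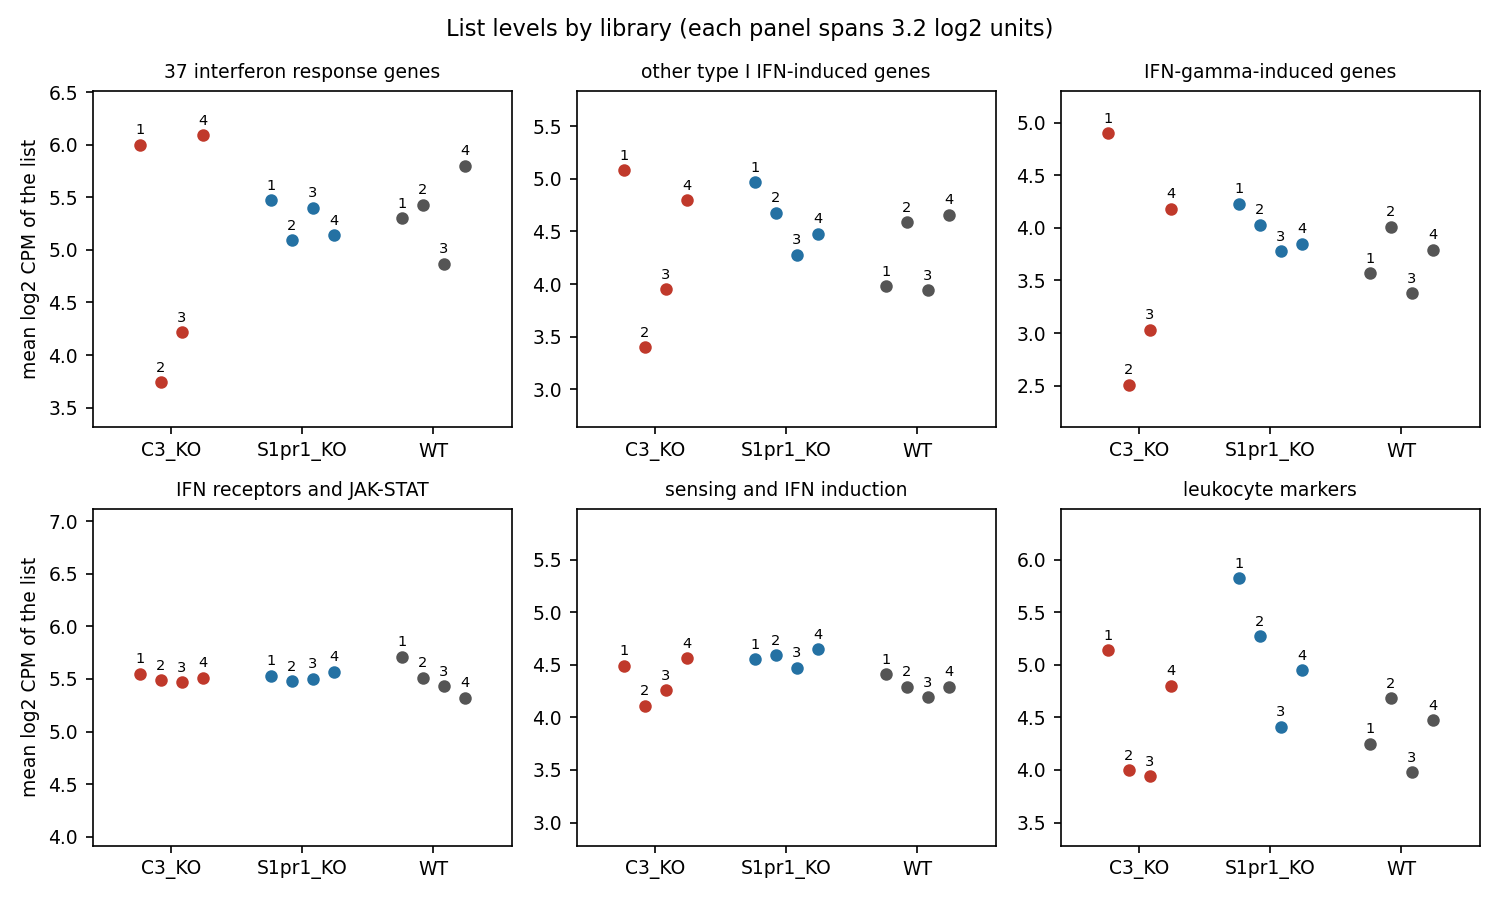
Mean log2 CPM of 6 gene lists in each library, with C3_KO, S1pr1_KO and WT from left to right and the replicate number above each point; every panel spans the same height. The 37 genes, the other type I induced genes and the interferon-gamma list spread widely in C3_KO, whereas the receptor and JAK-STAT list stays between 5.32 and 5.71.

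Markers of immune cells were set beside these levels. The 5 leukocyte markers summed to 234, 141, 88.2 and 179 CPM in C3_KO replicates 1 to 4, to 340, 239, 206 and 194.5 CPM in S1pr1_KO, and to 169, 172, 115 and 156 CPM in WT. Leukocyte markers were higher in C3_KO replicates 1 and 4 than in the other C3_KO libraries, as were the interferon response genes. Every S1pr1_KO library had a leukocyte sum above every WT library. By the mean log2 CPM of the 5 markers, S1pr1_KO replicates 1, 2 and 4 were above the WT range, at 5.82, 5.27 and 4.95. S1pr1_KO replicate 3 lay inside it by that measure, at 4.41 against 3.98 to 4.68. The mean log2 CPM of the interferon response genes in S1pr1_KO, 5.09 to 5.47, lay inside the WT range of 4.87 to 5.80. The leukocyte sum for C3_KO replicate 2 lay within the WT range, as did the mean log2 CPM of the 5 markers, 4.00 against 3.98 to 4.68. Of these markers Ptprc, which encodes the pan-leukocyte marker CD45, was below every WT library there, at 4.89 CPM against 7.26 to 14.6 CPM. A single marker does not stand for the list. The 6 T cell markers summed to 23.6, 5.51, 4.76 and 8.96 CPM in C3_KO, to between 9.33 and 38.6 CPM in S1pr1_KO and to between 5.90 and 13.3 CPM in WT. The 5 NK cell markers summed to 9.55, 2.62, 1.80 and 5.67 CPM in C3_KO, to between 4.28 and 11.7 CPM in S1pr1_KO and to between 4.03 and 5.56 CPM in WT. C3_KO replicates 2 and 3 were thus below every WT library for both lists, and C3_KO replicate 1 above every one. The 6 macrophage markers summed to 382, 315, 145 and 339 CPM in C3_KO, to between 311 and 389 CPM in S1pr1_KO and to between 255 and 368 CPM in WT. The 4 markers of plasmacytoid dendritic cells, a main source of interferon-alpha, summed to 4.82, 7.21, 1.23 and 4.37 CPM in C3_KO, to between 2.22 and 13.1 CPM in S1pr1_KO and to between 2.62 and 16.1 CPM in WT. Cox6a2 of this list made up 5.11 CPM of the sum in C3_KO replicate 2 and 12.6 CPM of the highest sum in WT. Siglech, the most specific of these markers, stood at 2.23, 0.256, 0.127 and 1.77 CPM in C3_KO replicates 1 to 4, at between 0.695 and 3.21 CPM in S1pr1_KO and at between 0.409 and 1.02 CPM in WT. Siglech thus lay above every WT library in C3_KO replicates 1 and 4 and below every one in C3_KO replicates 2 and 3. None of the immune cell markers was at 0 in any library, and their part in the levels of the interferon response genes was not tested. In whole tumours, fewer cells of a type and less RNA per cell cannot be told apart.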

How the data were processed

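Gene-level RNA abundance was measured in 12 mouse tumour libraries, grouped by the genotype label, 4 per genotype. Replicate numbers follow accession order and pair nothing. No batch or litter is labelled, nor whether tumours of 1 genotype are from different animals; p-values therefore describe the spread among these libraries, which may be partly technical. The authors deposited raw counts per gene and, in a second table, FPKM values for the same 56860 genes; per the file headers both have 12 sample columns, and 682317 of 682320 FPKM values equalled the scaled count within a relative tolerance of 1e-04. Per the submitters' processing notes, StringTie and GRCm39 (mm39) were used. No source used here gives the aligner, the counting program or the strand setting. Among counts from 1 to 50, 60.2 to 64.4% were even in each library, as when both mates of a pair are counted, so totals may overstate fragments. Loci of 14 of the 37 genes overlap another annotated gene.

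Counts were fitted with edgeR 4.0.16 in R 4.3.3 (filterByExpr, TMM, robust quasi-likelihood, 1 mean per genotype over all 12 libraries, 9 residual degrees of freedom), with Benjamini-Hochberg adjustment over 30660 genes and calls at an adjusted p under 0.05. The script was tested on simulated data. CPM values are TMM-scaled, and mean log2 CPM used a prior count of 2. Alternatives used DESeq2 1.42.0, limma 3.58.1 (voom with quality weights, or log2 FPKM with a pseudocount of 1 or 0.1), other scalings and filters, the 2 compared genotypes alone, and omission of libraries. Figures were drawn with matplotlib. The members and lists were chosen with earlier results of these data known. Named genes were the 6 with the smallest p per comparison plus Stat2, Irf9 and Irf7, and Ifnb1 outside the list (1 further gene of that rule is not reported here); windows were shown for named genes holding the motif, up to 6 by p in S1pr1_KO against WT. Genes were described by their lowest and highest libraries where not named. Attention was also drawn, after their values were seen, to Tlr7, Tlr9, Siglech, Cox6a2, Ifi44, Oasl1, Isg15, Samd9l and Rsad2.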

Additional observations from a re-analysis of the deposited data

Results flagged for a closer look

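Among 111 sets of 4 libraries, 1 per gene and genotype, 6 had a highest or lowest library whose gap to the other 3 exceeded Dixon's 95% critical value, where chance gives about 1 in 20. This count is near that share, and the rule was applied to CPM without a log scale. Ifi27l2a reached 227 CPM in S1pr1_KO replicate 1, against 26.6 to 36.8 CPM in the other S1pr1_KO libraries. Ifi44l reached 12.9 CPM in C3_KO replicate 4, against 0.0190 to 1.51 CPM in the other C3_KO libraries.

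The other 4 concern S1pr1_KO replicate 3 and point in both directions. Since the genes share this library, the 4 flags are not separate observations. Oasl1 was at 41.3 CPM there, against 12.6 to 15.3 CPM in the other S1pr1_KO libraries. Oas3 was at 26.9 CPM, against 11.4 to 13.9 CPM. Ifih1 was at 26.3 CPM, against 62.4 to 68.0 CPM, and Mx2 was at 8.08 CPM, against 9.93 to 10.2 CPM.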

How the results depend on the processing

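Each result was recomputed under 22 alternatives, 12 of which left out 1 library, and the causes of the changes below were not tested. No paired analysis was possible because the labels give the groups no shared replicate numbers. Of 27 named fold changes, 17 kept their sign throughout. Genes called in C3_KO against WT numbered 84 with DESeq2, 5 with voom, 1 on log2(FPKM + 1) and 0 to 8 when 1 library was left out. In S1pr1_KO against WT they numbered 895 with DESeq2, 7828 with voom, 10 without a filter, 23 with a CPM filter, 33 on log2(FPKM + 1), 43 on log2(FPKM + 0.1), 68 with these genotypes alone and 0 to 1330 when 1 library was left out, the last without S1pr1_KO replicate 3, against 32 without C3_KO replicate 4 and 9 without C3_KO replicate 1. In S1pr1_KO against C3_KO they numbered 122 with DESeq2 and 0 to 3 when 1 library was left out. Members called in S1pr1_KO against WT numbered 1 with DESeq2, 3 with voom and 1 with these genotypes alone, and in S1pr1_KO against C3_KO 1 with DESeq2; leaving out 1 library gave 0 in every comparison.

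The following log2 fold changes changed sign under some alternative. In C3_KO against WT, leaving out 1 library gave -0.11 to 0.34 for Irf9 and -0.88 to 0.21 for Irf7, and Irf7 was 0.23 without the milk-rich and both salivary-rich libraries. In S1pr1_KO against WT, leaving out 1 library gave -0.05 to 1.58 for Ifi27l2a and -0.54 to 0.28 for Irf7, and omitting those 3 libraries gave -0.18 and 0.34. Irf7 was also 0.08 with upper-quartile factors, 0.02 with the CPM filter and 0.00 on both FPKM scales. In S1pr1_KO against C3_KO, Ifi27l2a was -0.47 without those 3 libraries. Leaving out 1 library gave -0.98 to 0.03 for Ifit3b, -0.92 to 0.23 for Ifit3, -0.32 to 0.34 for Stat2, -0.08 to 0.36 for Irf9 and -0.45 to 0.83 for Irf7. On log2(FPKM + 1) and log2(FPKM + 0.1), Ifit3b was 0.17 and 0.26, Ifit3 0.33 and 0.38, and Stat2 0.29 and 0.36. Stat2, at -0.00 as reported, was 0.02 with RLE factors, DESeq2, no filter or these genotypes alone, 0.03 with upper-quartile factors, 0.05 with voom and 0.01 with the CPM filter. With voom, Irf9 was -0.05 and Irf7 -0.34.

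Depth limited few of these genes: Ifnb1 had at most 19 counts in a library, and Ifi44l 6 to 24 in S1pr1_KO. The limit of 3 counts for a count of 0 holds for independent counts and covers counting error only, whereas the 95% intervals include the spread between libraries.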
